A study of Mus musculus with 18 samples.

Results

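Hippocampal RNA of mice at postnatal day 21 (P21, 3 weeks of age) was compared between a conditional knockout (cKO) of Arid1a and wild type (WT), across all genes. The comparison rests on 4 libraries, 2 WT and 2 cKO, chosen by their age and genotype labels from the 10 RNA libraries and 18 samples of the series. All mice were C57BL/6, and the series design calls the RNA replicates biological. The labels name neither the Cre line nor the cells in which Arid1a was deleted, and they do not say how many animals went into a library. Hippocampi at embryonic day 16.5 (E16.5), with 3 WT and 3 cKO RNA libraries, and chromatin immunoprecipitation (ChIP-seq) peak lists of 3 histone marks at 3 weeks, with 1 library per genotype and mark, served for comparison.

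ARID1A is a large DNA-binding subunit of the canonical BAF (SWI/SNF) complex, which uses ATP to slide or evict nucleosomes and so opens promoters and enhancers to transcription factors. BAF complexes oppose Polycomb group complexes, which place the repressive mark H3K27me3 on silent developmental genes. In the third postnatal week the hippocampus is still building myelin, adding granule neurons to the dentate gyrus and refining synapses.

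The 4 libraries held 20089631 to 20332148 estimated counts each. Levels are given as CPM, counts scaled to a common library size with edgeR's TMM factors, which is a share of the reads and is not comparable between genes of different length. Changes are log2 ratios of cKO to WT, each with a standard error (SE) derived from its test, and a gene was called higher or lower at an edgeR adjusted p under 0.05. In whole tissue, fewer cells of a type and less RNA per cell cannot be told apart. The first principal component held 55.1% of the variance and separated the genotypes. Among 12173 genes of at least 5 CPM, 173 differed 2-fold or more between the cKO libraries and 93 between the WT libraries.

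Single libraries stood apart in 2 sets of genes. WT replicate 1 carried interferon-induced RNAs: Irf7, an interferon-regulated transcription factor, had 19.5 CPM there against 0.819 to 1.60 CPM in the other 3 libraries. Of 21 tested interferon-induced genes, 19 were highest in WT replicate 1 and 15 were at least 2-fold above the next library, a property of 0.500% of all tested genes. In cKO replicate 1 the choroid plexus RNA Ttr reached 3429 CPM against 949 CPM in cKO replicate 2 and 1304 and 1077 CPM in WT. Replicate 1 of each genotype expressed Y-linked genes and replicate 2 of each expressed Xist, with 4914 counts in WT and 3572 in cKO, so the replicate number coincided with sex and both sexes were present in each genotype.

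Arid1a itself, on chromosome 4, had 4291 and 4089 estimated counts in the WT libraries and 2281 and 1778 in the cKO libraries. At 215 and 205 CPM in WT and 110.0 and 89.2 CPM in cKO its level fell by 1.08 on the log2 scale (SE 0.13, edgeR adjusted p = 0.00507). Each cKO library lay below each WT library. Counts per gene cannot tell apart RNA of undeleted cells and transcripts that lack the deleted part.

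In cKO, 489 genes were higher (2.81% of the 17407 tested) and 680 were lower (3.91%). At least 2-fold changes numbered 267 and 277, and at least 4-fold changes 102 and 72, so losses were slightly more numerous from 2-fold up and gains from 4-fold up. The median change was 1.12 among the genes that rose and -0.85 among those that fell, against 0.01 over all tested genes. In each of the called genes the libraries of the 2 genotypes did not overlap, a property of 56.1% of all tested genes. Genes that rose took 2.05% and 2.03% of the counts in WT replicates 1 and 2 and 3.24% and 3.35% in cKO replicates 1 and 2. Genes that fell took 6.08% and 6.22% in WT and 3.76% and 3.72% in cKO. With upper-quartile scaling in place of TMM, 570 genes were called higher and 519 lower, so the share of calls that were gains was 52.3% in place of 41.8%.

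The calls were spread over gene types, levels and chromosomes. Protein-coding genes gave 409 higher and 614 lower of 14641, and long noncoding RNAs gave 59 and 39 of 1545. The share called rose with the level, from 1.503% of genes under 1 CPM to 8.57% of genes over 100 CPM. Genes that fell had a median length of 27766 bp and genes that rose 18934 bp, beside 22463 bp for genes not called. Over the autosomes and X the share called ran from 4.97% on chromosome 17 to 8.95% on chromosome 1. Within 10 Mb of Arid1a, 6 genes rose and 25 fell of 282 tested, or 11.0%, against 17 and 38 of 707 on the rest of chromosome 4, or 7.78%. Among the genes with the largest changes, Matn1 and Padi2 lie within 10 Mb of Arid1a and Tnfrsf25 lies elsewhere on that chromosome. These 3 are examples, and chromosome 4 held 990 of the 15945 genes with a position. Without WT replicate 1 the calls numbered 249 and 394 and without WT replicate 2 they numbered 138 and 293, of which 195 and 345, and 109 and 224, were calls of all 4 libraries. Without cKO replicate 1 they numbered 1244 and 1627.

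**Figure D1:**
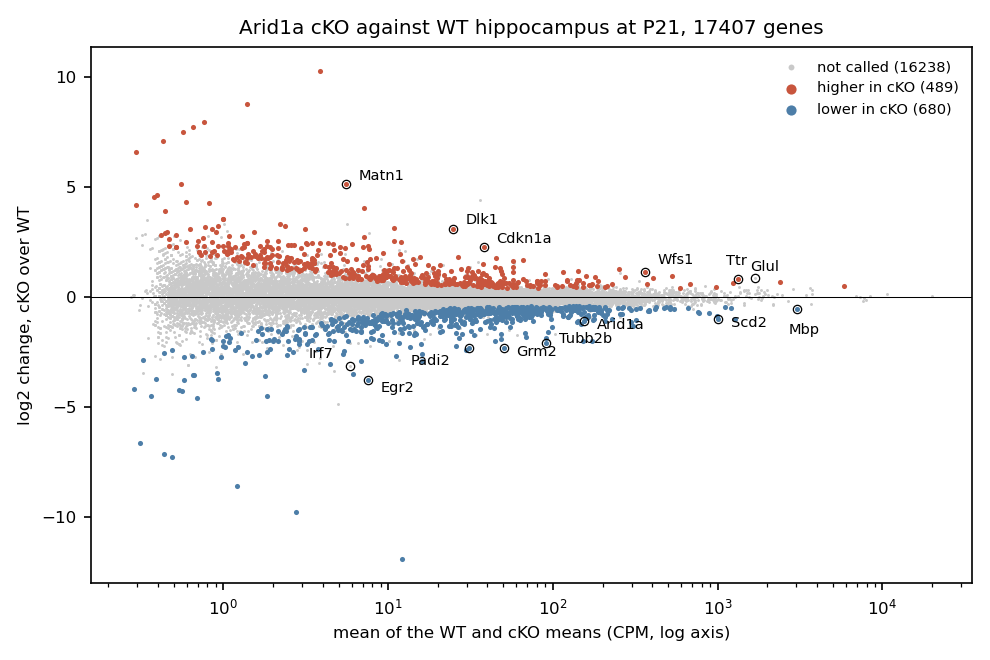
Each point is a tested gene, placed by its mean level in CPM on a log axis and by its log2 change in cKO over WT, with called genes coloured by direction. The 489 higher and 680 lower genes lie across the range of levels, and Arid1a sits at -1.08.

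By read share, the largest gains were in RNAs of glia, secretion and neurons. Cpe, a carboxypeptidase that processes neuropeptide precursors, had 1820.0 and 1854 CPM in WT and 2877 and 3060.1 CPM in cKO (log2 change 0.69, SE 0.11, edgeR adjusted p = 0.0121). Glul, the glutamine synthetase of astrocytes, had 941 and 981 CPM in WT and 1656 and 1698 CPM in cKO (log2 change 0.80, SE 0.10, edgeR adjusted p = 0.00704). Apoe, the main lipoprotein of brain, had 1003 and 912 CPM in WT and 1458 and 1556 CPM in cKO (log2 change 0.65, SE 0.11, edgeR adjusted p = 0.0173). In all 3 genes both cKO libraries lay above both WT libraries, which the rule for naming genes required. Wfs1, an endoplasmic reticulum protein abundant in CA1 neurons, had 222 and 232 CPM in WT and 413 and 575 CPM in cKO (log2 change 1.12, SE 0.16, edgeR adjusted p = 0.0108). Timp2, an inhibitor of matrix metalloproteinases, had 292 and 284 CPM in WT and 471 and 565 CPM in cKO (log2 change 0.85, SE 0.12, edgeR adjusted p = 0.01). Selenop, a secreted selenium carrier, had 187 and 196 CPM in WT and 365 and 349 CPM in cKO (log2 change 0.90, SE 0.10, edgeR adjusted p = 0.00456). The remaining genes among the 12 largest gains were Fam107a (0.94), Itm2c (0.60), the imprinted splicing gene Snrpn (0.43), Zwint (0.43), Mt1 (1.25) and the mitochondrial ribosomal RNA mt-Rnr2 (0.51). Of these 12 gains, 4 were called without WT replicate 1 and 3 without WT replicate 2.

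The largest losses by read share were myelin and cytoskeletal RNAs. Mbp, myelin basic protein, had 3579 and 3603 CPM in WT and 2445 and 2417 CPM in cKO (log2 change -0.56, SE 0.10, edgeR adjusted p = 0.0228). Mobp, another myelin protein, had 1175 and 1386 CPM in WT and 764 and 639 CPM in cKO (log2 change -0.87, SE 0.14, edgeR adjusted p = 0.0129). Scd2, a stearoyl-CoA desaturase that makes monounsaturated fatty acids, had 1339 and 1331 CPM in WT and 659 and 691 CPM in cKO (log2 change -0.98, SE 0.10, edgeR adjusted p = 0.00349), with near-equal replicates in each genotype. Neuronal RNAs among these 12 were Adcy1, a calcium-stimulated adenylyl cyclase (-0.71), Nrgn, a postsynaptic calmodulin-binding protein (-0.51), Olfm1 (-0.48) and Egr1, an activity-induced transcription factor (-1.33). The tubulins Tuba1a (-0.74) and Tubb4a (-0.68) and the myelin genes Mal (-1.07) and Cnp (-1.14) were among them too. Of these 12 losses, 7 were called without WT replicate 1 and 5 without WT replicate 2.

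By fold change, the rise reached genes that are nearly silent in WT hippocampus. Gpnmb, a glycoprotein of lysosome-rich phagocytes and glia, had 0.851 and 1.75 CPM in WT and 8.77 and 5.77 CPM in cKO (log2 change 2.48, SE 0.38, edgeR adjusted p = 0.0132). Magel2, an imprinted ubiquitin ligase regulator, had 1.45 and 0.903 CPM in WT and 7.76 and 5.32 CPM in cKO (log2 change 2.47, SE 0.33, edgeR adjusted p = 0.00822). Lin28b, an RNA-binding protein that blocks let-7 maturation and marks embryonic cells, had 1.40 and 1.35 CPM in WT and 6.56 and 5.77 CPM in cKO (log2 change 2.16, SE 0.25, edgeR adjusted p = 0.0051). In these genes the lower cKO library stood at least 3 times above the higher WT library. Angptl4, an inhibitor of lipoprotein lipase, had 2.35 and 1.504 CPM in WT and 10.3 and 10.03 CPM in cKO (log2 change 2.39, SE 0.26, edgeR adjusted p = 0.00384). Cdkn1a, which encodes the cell cycle inhibitor p21, had 10.7 and 15.5 CPM in WT and 54.0 and 71.6 CPM in cKO (log2 change 2.26, SE 0.22, edgeR adjusted p = 0.00498). The ion exchanger Slc9a3 (2.45), the kinases Mapk15 (2.44) and Map3k6 (2.31), the adenylate kinase Ak7 of motile cilia (2.25), Aspg (2.43), Tc2n (2.42) and Rnf207 (2.17) rose by similar folds. Above them ranked Ugt1a6b, Matn1, Ugt1a6a, Etnppl, Dlk1, Twist1, Ctla2a and Fbln5. Of these 20 genes, 19 were called without WT replicate 1 and 18 without WT replicate 2.

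The deepest falls were in genes of glia and dentate neurons. Grm2, a presynaptic group II glutamate receptor of granule cell axons, shared the lowest adjusted p of all tested genes with the gene model Gm20388 and had 84.5 and 84.0 CPM in WT and 17.1 and 16.5 CPM in cKO (log2 change -2.33, SE 0.11, edgeR adjusted p = 0.000246). S100b, a calcium-binding protein of astrocytes and oligodendrocytes, had 50.3 and 49.6 CPM in WT and 8.19 and 10.5 CPM in cKO (log2 change -2.42, SE 0.15, edgeR adjusted p = 0.00049). Gjb1, the connexin 32 gene of oligodendrocytes, had 8.56 and 9.83 CPM in WT and 1.98 and 1.30 CPM in cKO (log2 change -2.48, SE 0.27, edgeR adjusted p = 0.00377). Kif26b, a kinesin-like protein, had 42.0 and 43.4 CPM in WT and 11.5 and 6.57 CPM in cKO (log2 change -2.24, SE 0.25, edgeR adjusted p = 0.00817). Kcnj16, an inwardly rectifying potassium channel subunit of glia, had 15.2 and 16.3 CPM in WT and 2.60 and 4.66 CPM in cKO (log2 change -2.12, SE 0.27, edgeR adjusted p = 0.00704). Tubb2b, the tubulin of growing neurons, had 161 and 134 CPM in WT and 26.3 and 42.1 CPM in cKO (log2 change -2.11, SE 0.24, edgeR adjusted p = 0.0127). The relaxin receptor Rxfp1 (-2.35), the microglial genes P2ry12 (-2.27) and Olfml3 (-2.08) and the granule cell gene C1ql2 (-2.14) fell by similar folds. Egr2, Rlbp1, Fcrls, Capn3, Lcat, Itgam, Tnfrsf25 and Gdpd2 ranked below them, and 19 of the 20 lowest genes were called without WT replicate 1 and as many without WT replicate 2.

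**Figure D2:**
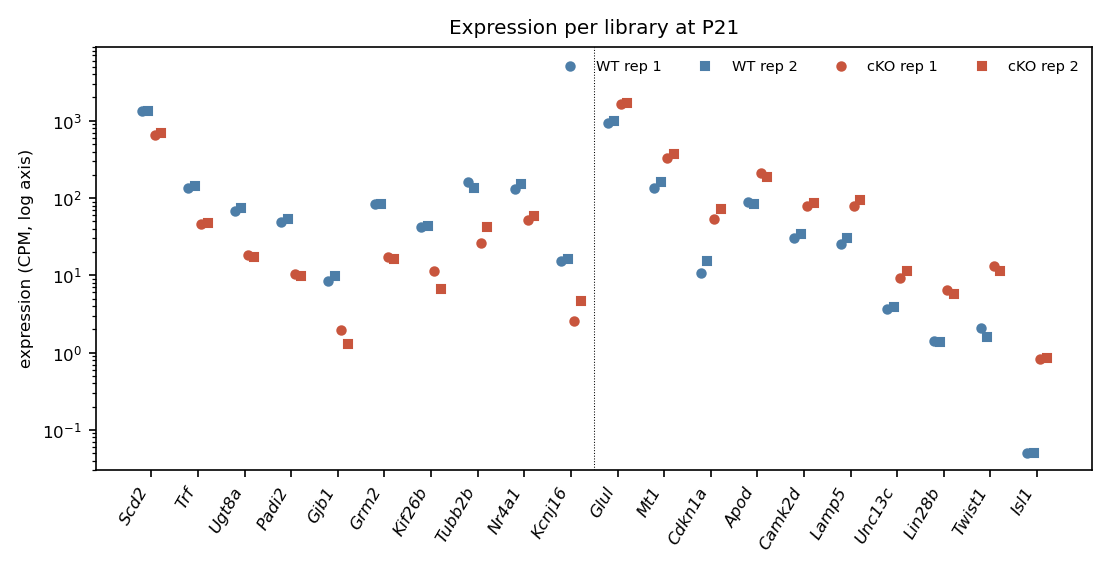
Level in CPM on a log axis of 10 genes that fell and 10 that rose, with a point for each of the 2 WT and 2 cKO libraries. In each gene the points of the 2 genotypes do not overlap, from Scd2 at 1339 and 1331 CPM in WT against 659 and 691 CPM in cKO to Isl1 at 0.0501 and 0.0501 against 0.819 and 0.852 CPM. Non-overlap holds for every called gene and for 56.1% of all tested genes.

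Promoters of 6 of the changed genes are shown because their histone peaks differed in kind, from a CpG-rich start with an H3K27me3 peak in cKO to a CpG-poor start with no peak. Ugt8a and Mog are oligodendrocyte genes, Padi2 encodes a peptidylarginine deiminase that citrullinates myelin proteins, Prox1 encodes the homeobox factor that sets granule cell identity, and Twist1 and Matn1 are among the genes that rose most. Each sequence runs 5′ to 3′ on the gene's strand, from 250 bases before to 50 bases after a RefSeq transcript start (GRCm38.p6), and capitals mark CpG dinucleotides.
Ugt8a, chr3:125938603-125938902, minus strand: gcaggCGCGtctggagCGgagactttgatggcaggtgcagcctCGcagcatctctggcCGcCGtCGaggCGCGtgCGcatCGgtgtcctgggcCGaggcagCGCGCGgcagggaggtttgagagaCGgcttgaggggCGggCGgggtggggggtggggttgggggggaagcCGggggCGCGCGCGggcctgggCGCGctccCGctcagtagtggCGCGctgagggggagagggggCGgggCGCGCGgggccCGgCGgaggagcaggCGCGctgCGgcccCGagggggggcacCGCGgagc
Padi2, chr4:140906110-140906409, plus strand: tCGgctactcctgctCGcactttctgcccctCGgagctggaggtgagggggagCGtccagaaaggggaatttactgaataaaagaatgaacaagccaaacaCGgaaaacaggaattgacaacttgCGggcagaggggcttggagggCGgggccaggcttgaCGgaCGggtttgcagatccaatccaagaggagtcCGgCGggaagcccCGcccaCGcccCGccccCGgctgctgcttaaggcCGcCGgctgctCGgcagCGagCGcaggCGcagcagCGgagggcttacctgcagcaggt
Prox1, chr1:190170778-190171077, minus strand: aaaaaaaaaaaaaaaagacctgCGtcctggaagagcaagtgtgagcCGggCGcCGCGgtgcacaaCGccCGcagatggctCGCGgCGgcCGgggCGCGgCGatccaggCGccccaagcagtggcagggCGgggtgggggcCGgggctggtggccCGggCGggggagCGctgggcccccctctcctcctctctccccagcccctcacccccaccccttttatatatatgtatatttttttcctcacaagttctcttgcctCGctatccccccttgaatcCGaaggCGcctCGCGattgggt
Twist1, chr12:33957421-33957720, plus strand: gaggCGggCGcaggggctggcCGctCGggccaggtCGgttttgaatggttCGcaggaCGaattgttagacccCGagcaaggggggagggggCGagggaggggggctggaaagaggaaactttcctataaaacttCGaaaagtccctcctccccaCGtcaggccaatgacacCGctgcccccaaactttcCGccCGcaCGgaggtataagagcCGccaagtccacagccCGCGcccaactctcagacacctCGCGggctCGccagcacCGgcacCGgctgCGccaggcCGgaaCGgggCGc
Mog, chr17:37023349-37023648, minus strand: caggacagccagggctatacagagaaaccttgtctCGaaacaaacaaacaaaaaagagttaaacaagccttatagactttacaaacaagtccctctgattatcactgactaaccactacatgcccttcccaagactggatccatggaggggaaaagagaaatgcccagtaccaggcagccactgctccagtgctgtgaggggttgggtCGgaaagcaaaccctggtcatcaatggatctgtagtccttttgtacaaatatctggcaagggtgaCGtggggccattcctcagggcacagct
Matn1, chr4:130944135-130944434, plus strand: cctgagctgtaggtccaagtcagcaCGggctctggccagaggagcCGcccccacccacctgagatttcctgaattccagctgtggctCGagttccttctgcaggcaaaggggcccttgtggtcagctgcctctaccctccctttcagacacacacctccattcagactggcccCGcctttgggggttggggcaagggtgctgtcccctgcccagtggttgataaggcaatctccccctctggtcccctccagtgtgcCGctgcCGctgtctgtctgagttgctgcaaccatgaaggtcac

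The median RefSeq promoter of this length had 7 CpG, over 32851 promoters. Ugt8a had 40, which 3.91% of promoters reached, Twist1 had 27, Prox1 25 and Padi2 22, while Matn1 had 6 and Mog 3. The H3K27me3 peaks over the first 4 windows were in the cKO list, at a fold enrichment over input of 8.12 for Ugt8a, 5.11 for Padi2 and 6.87 for Prox1, with none in the WT list. At Twist1 the peak was in both lists, at 4.96 in WT and 14.2 in cKO. An H3K4me3 peak at Twist1, at 8.94, was in the cKO list alone, whereas Ugt8a, Padi2 and Prox1 had H3K4me3 peaks in both. Mog and Matn1 had no peak of the 3 marks in these windows. The 6 windows are examples and do not show that H3K27me3 follows CpG number. Etnppl, with 2 CpG, and Dlk1, with 9, had H3K27me3 peaks in the cKO list alone, at 6.31 and 8.95. Fkbp5, with 32 CpG, and Mt1, with 24, had none in either list, while Igfbp3, with 37, had a peak of 6.92 in the cKO list. These fold enrichments are the authors', from single ChIP-seq libraries, and none of them has a replicate check.

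Oligodendrocyte genes fell together. Of 15 tested markers, 14 fell, with a median change of -1.11 beside 0.01 over all genes, and their summed level was 8668 and 9409 CPM in WT and 5913 and 4930 CPM in cKO. Ugt8a, which makes galactosylceramide for myelin, had 68.6 and 74.5 CPM in WT and 18.4 and 17.1 CPM in cKO (log2 change -2.01, SE 0.11, edgeR adjusted p = 0.00049). Mog, myelin oligodendrocyte glycoprotein, had 102 and 113 CPM in WT and 29.0 and 31.1 CPM in cKO (log2 change -1.84, SE 0.11, edgeR adjusted p = 0.00049). Opalin, a membrane protein of myelinating cells, had 22.1 and 22.8 CPM in WT and 7.52 and 6.42 CPM in cKO (log2 change -1.69, SE 0.15, edgeR adjusted p = 0.00231). In these 3 genes the cKO libraries lay close together. Ermn (-1.87), Aspa, the aspartoacylase that is deficient in Canavan disease (-1.62), Mag, Cldn11, Gjc3 and Tspan2 fell too. Without WT replicate 1, 12 of the 14 calls remained, and without WT replicate 2, 8. Of 10 tested progenitor markers, Bcas1, which marks premyelinating cells, fell to 119.9 and 99.2 from 195 and 227 CPM (log2 change -0.95, SE 0.13, edgeR adjusted p = 0.00922), and Olig1, a lineage transcription factor, to 71.7 and 75.8 from 119.6 and 114 CPM (log2 change -0.66, SE 0.10, edgeR adjusted p = 0.0125). The median over those 10 was -0.46. Outside the marker lists, Padi2 fell to 10.6 and 9.73 from 48.4 and 54.4 CPM (log2 change -2.34, SE 0.13, edgeR adjusted p = 0.00049).

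Lipid genes fell mainly in fatty acid synthesis. Beside Scd2, 5 more of 15 tested members fell: Fads2 and Fads1, the desaturases that make long polyunsaturated fatty acids, Elovl6 and Elovl5, which elongate fatty acids, and Scd1. Fads2 had 217 and 189 CPM in WT and 103 and 114 CPM in cKO (log2 change -0.91, SE 0.12, edgeR adjusted p = 0.00704), and Fads1 269 and 264 CPM in WT and 149.8 and 164 CPM in cKO (log2 change -0.76, SE 0.10, edgeR adjusted p = 0.0086). Elovl6 changed by -0.72, Scd1 by -0.70 and Elovl5 by -0.53. The summed level of the 15 was 2990 and 2922 CPM in WT and 1840 and 1936 CPM in cKO. The median change of the 15 was -0.37. In galactolipid and sphingolipid synthesis 2 of 17 fell, Ugt8a and Fa2h, which hydroxylates the fatty acid of galactolipids, at 69.6 and 74.1 CPM in WT and 33.8 and 30.9 CPM in cKO (log2 change -1.15, SE 0.11, edgeR adjusted p = 0.0025). In lipoproteins and sterol efflux the calls went both ways. Apod, a lipocalin of glia, rose to 209.6 and 187 from 89.1 and 84.3 CPM (log2 change 1.19, SE 0.11, edgeR adjusted p = 0.00231), Abca1, which loads cholesterol onto apolipoproteins, rose by 0.87, and Apoe rose as given above. Lcat, which esterifies the cholesterol of lipoproteins, fell to 4.29 and 3.26 from 30.9 and 25.5 CPM (log2 change -2.90, SE 0.19, edgeR adjusted p = 0.000596). Of the 14 calls in the lipid lists, 10 remained without WT replicate 1 and 10 without WT replicate 2.

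Energy and amino acid metabolism changed at single enzymes. In glycogen metabolism 4 of 18 tested genes fell and 1 rose. Phkg1, a catalytic subunit of phosphorylase kinase, had 26.0 and 21.01 CPM in WT and 8.92 and 9.48 CPM in cKO (log2 change -1.35, SE 0.16, edgeR adjusted p = 0.00513). Phkb, its regulatory subunit (-0.71), Ppp1r3c, which brings phosphatase 1 to glycogen (-0.67), and Ugp2, which makes UDP-glucose (-0.58), also fell, while Pygm, the glycogen phosphorylase of muscle and astrocytes, rose to 33.9 and 39.5 from 23.1 and 24.0 CPM (log2 change 0.64, SE 0.13, edgeR adjusted p = 0.028). Among 20 enzymes of glutamate, glutamine and other amino acids, Glul, Ddc, Aldh6a1 and Prodh rose and Gpt fell. Ddc, which makes dopamine and serotonin from their amino acid precursors, had 5.96 and 4.71 CPM in WT and 13.4 and 16.5 CPM in cKO (log2 change 1.49, SE 0.20, edgeR adjusted p = 0.00802), and Gpt, alanine aminotransferase, had 9.82 and 9.13 CPM in WT and 2.80 and 3.71 CPM in cKO (log2 change -1.54, SE 0.22, edgeR adjusted p = 0.0103). In serine, glycine and folate metabolism Phgdh, the entry enzyme of serine synthesis (-0.73), and Aldh1l2 (-1.04) fell and Mthfd1l rose (0.82), of 16 tested. Of 17 genes of fatty acid oxidation and ketone use, Oxct1, which lets cells burn ketone bodies, fell to 195 and 184 from 307 and 332 CPM (log2 change -0.75, SE 0.10, edgeR adjusted p = 0.00891). No glycolysis gene of 21 tested passed edgeR; at an unadjusted p under 0.05 there were 1 higher and 2 lower, DESeq2 called 2 lower, and the median change was 0.15. Aldoc came closest at -0.37 (edgeR adjusted p = 0.0802). Of the 14 calls in these metabolic lists, 5 remained without WT replicate 1 and 4 without WT replicate 2.

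Metal handling and stress genes split by kind. Of 13 tested metallothionein and iron genes 5 rose and 2 fell. Mt1, a metallothionein that binds zinc and copper, had 136 and 159.8 CPM in WT and 329 and 376 CPM in cKO (log2 change 1.25, SE 0.13, edgeR adjusted p = 0.00316), and its neighbour Mt2 had 94.95 and 121 CPM in WT and 185 and 231 CPM in cKO (log2 change 0.95, SE 0.16, edgeR adjusted p = 0.0172). Cp, the ferroxidase ceruloplasmin of astrocytes, had 10.3 and 10.9 CPM in WT and 24.7 and 28.8 CPM in cKO (log2 change 1.34, SE 0.14, edgeR adjusted p = 0.00371). The related ferroxidase Heph (0.89) and the transferrin receptor Tfrc (0.50) rose as well. Trf, transferrin, which oligodendrocytes and choroid plexus make, fell to 46.2 and 47.5 from 137 and 143 CPM (log2 change -1.58, SE 0.10, edgeR adjusted p = 0.000555) in replicates 1 and 2 of each genotype, while choroid plexus markers were high in cKO replicate 1. Slc40a1, the iron exporter ferroportin, fell by 1.03. In 21 heat shock and unfolded protein response genes 3 fell, with a median of -0.31: Hsph1, a chaperone of the HSP110 family, had 259 and 281 CPM in WT and 142 and 146 CPM in cKO (log2 change -0.91, SE 0.10, edgeR adjusted p = 0.00461), Dnajb5 had 232 and 243 CPM in WT and 103 and 131 CPM in cKO (log2 change -1.03, SE 0.13, edgeR adjusted p = 0.0073), and Xbp1, the factor spliced on endoplasmic reticulum stress, changed by -0.67. At an unadjusted p under 0.05, 10 of the 21 were lower. Of the 14 calls in the metal, heat shock, glutathione and hypoxia lists, 10 remained without WT replicate 1 and 8 without WT replicate 2. Of 22 genes of glutathione and the NRF2 response Gpx3, a secreted glutathione peroxidase, rose to 13.8 and 9.88 from 3.66 and 3.51 CPM (log2 change 1.73, SE 0.23, edgeR adjusted p = 0.00744).

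Glucocorticoid targets were the set with the largest share of gains among lists of 20 or more. Of 21 tested members 9 rose and 1 fell, with a median of 0.35, and their summed level was 2378 and 2589 CPM in WT and 3535 and 3778 CPM in cKO. The genes that rose were Cdkn1a, Mt1, Mt2, Glul, Plin4, Sult1a1, Fkbp5, Klf15 and Dusp1, of which Mt1, Mt2, Glul, Sult1a1 and Klf15 also belong to other lists. Fkbp5, a chaperone of the glucocorticoid receptor, had 61.0 and 66.8 CPM in WT and 96.3 and 112 CPM in cKO (log2 change 0.71, SE 0.12, edgeR adjusted p = 0.0172), and Plin4, a coat protein of lipid droplets, had 3.56 and 6.02 CPM in WT and 18.5 and 19.1 CPM in cKO (log2 change 1.97, SE 0.24, edgeR adjusted p = 0.00656). Nr3c1, the glucocorticoid receptor gene itself, fell to 49.2 and 47.0 from 65.5 and 74.1 CPM (log2 change -0.54, SE 0.11, edgeR adjusted p = 0.0305). Corticosterone and the time of day of dissection are not given in the labels. Of the 10 calls, 5 remained without WT replicate 1 and 6 without WT replicate 2. Of 16 hypoxia targets Hif3a, Slc2a1 and Kdm3a rose, Hif3a, a subunit of the hypoxia-inducible factors, to 61.0 and 50.05 from 17.9 and 20.8 CPM (log2 change 1.52, SE 0.14, edgeR adjusted p = 0.0025). The clock genes of 18 tested split, with Npas2 (log2 0.94, SE 0.16) and Cry1 (log2 0.87, SE 0.14) higher and Per2, a core repressor of the clock, lower at 36.8 and 33.5 against 64.2 and 62.5 CPM (log2 change -0.85, SE 0.11, edgeR adjusted p = 0.00656).

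BMP and TGF-beta signalling, which patterns the dorsal forebrain and steers glial fate, held 4 genes that rose and 3 that fell of 32 tested. Id3 and Id1, transcriptional inhibitors induced by BMP receptors, had 11.5 and 7.07 CPM in WT and 22.99 and 28.3 CPM in cKO (log2 change 1.47, SE 0.24, edgeR adjusted p = 0.0195) and 6.36 and 6.02 CPM in WT and 14.2 and 17.1 CPM in cKO (log2 change 1.34, SE 0.17, edgeR adjusted p = 0.00704). The ligands Bmp2 (1.16) and Bmp6 (0.84) rose with them. Ltbp1, which stores latent TGF-beta in the matrix, fell to 2.02 and 2.26 from 6.46 and 6.72 CPM (log2 change -1.62, SE 0.23, edgeR adjusted p = 0.00994), the receptor Tgfbr1 fell by 0.91 and the ligand Gdf11 by 0.59. In FGF signalling the growth factor Fgf1 (log2 -0.72, SE 0.11) and the feedback inhibitor Spred2 (log2 -0.51, SE 0.11) fell, of 24 tested. Gli1, a transcription factor induced by hedgehog, rose to 5.69 and 6.32 from 1.60 and 2.96 CPM (log2 change 1.39, SE 0.31, edgeR adjusted p = 0.0418) and was the only call of 14 hedgehog genes. Ccn2, a target of the YAP and TEAD factors, rose to 31.3 and 52.2 from 11.8 and 11.5 CPM (log2 change 1.84, SE 0.25, edgeR adjusted p = 0.0158), and the 15 tested targets had a median of 0.36 and 6 were higher at an unadjusted p under 0.05. Ccn2 was the only call of these targets and also the only gene called higher among 15 tested subiculum and neocortex markers. The FGF, hedgehog, YAP and TEAD and neurotrophic lists gave calls near the 6.72% of all tested genes called in either direction. Erbb3, a neuregulin receptor of glia, fell to 7.38 and 4.41 from 15.8 and 21.2 CPM (log2 change -1.65, SE 0.27, edgeR adjusted p = 0.0197), of 20 neurotrophic genes. Of the 25 calls in these lists together with the glucocorticoid and clock lists, 14 remained without WT replicate 1 and 12 without WT replicate 2.

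Immune genes gave few calls outside the microglial markers. Of the 21 interferon-induced genes none passed edgeR, 3 were lower at an unadjusted p under 0.05 and DESeq2 called 2 lower. Their median was -1.41 with all libraries and 0.04 without WT replicate 1, and their summed level was 426 and 138 CPM in WT and 123 and 124 CPM in cKO. Of 14 antigen presentation genes H2-Aa, a class II chain, fell from 1.55 and 1.003 to 0.241 and 0.201 CPM (log2 change -2.50, SE 0.51, edgeR adjusted p = 0.03). H2-Aa was the only call of that list, lay at a low level in all libraries and was not called by DESeq2. The median of the 14 genes was -0.68 with all libraries and 0.07 without WT replicate 1. Of 18 cytokines and receptors Osmr, the oncostatin M receptor of reactive astrocytes, rose to 17.2 and 12.1 from 7.86 and 5.37 CPM (log2 change 1.15, SE 0.25, edgeR adjusted p = 0.0386). Csf1, a growth factor for microglia, fell to 18.9 and 18.8 from 31.9 and 28.5 CPM (log2 change -0.68, SE 0.12, edgeR adjusted p = 0.0225), as did Il1r1 (-0.63) and Tnfrsf25 (-2.59). Of 12 microglial markers 8 fell, with a median of -0.87: Tmem119 had 14.2 and 13.9 CPM in WT and 4.53 and 2.56 CPM in cKO (log2 change -1.98, SE 0.26, edgeR adjusted p = 0.00814) and Cx3cr1, the fractalkine receptor, 39.2 and 40.7 CPM in WT and 21.02 and 14.9 CPM in cKO (log2 change -1.15, SE 0.17, edgeR adjusted p = 0.0114). Of these 8, 5 were called without WT replicate 1 and 7 without WT replicate 2.

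**Figure D3:**
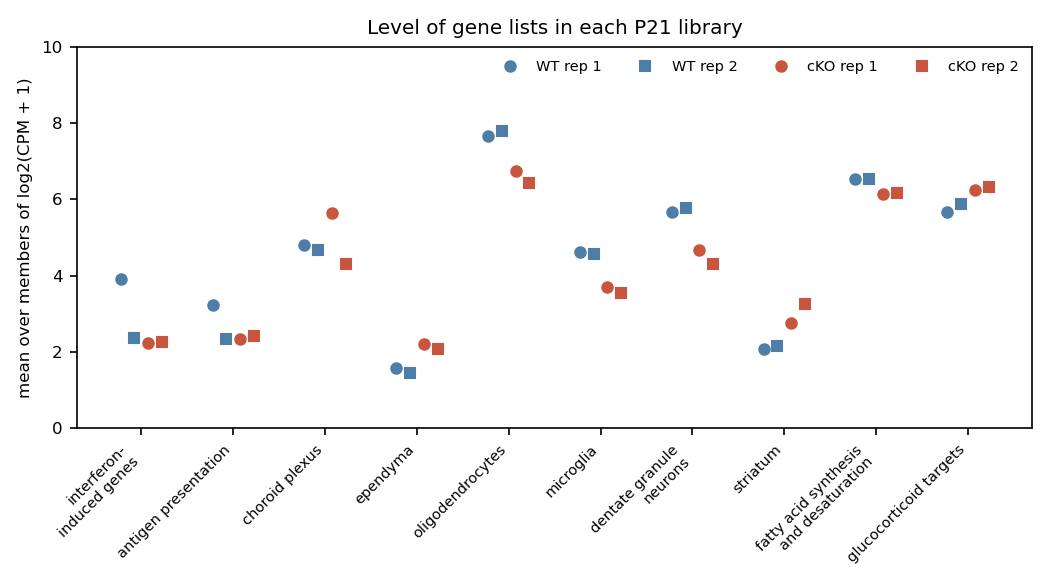
Mean of log2(CPM + 1) over the tested members of 10 gene lists, 1 point per library. Interferon-induced genes are high in WT replicate 1 alone and choroid plexus genes in cKO replicate 1, while oligodendrocyte, microglial and dentate granule genes are lower in both cKO libraries.

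Neuronal genes changed at single members of each list, beside 6.72% of all tested genes called in either direction. The vesicle list and the calcium list, with 1 gene higher and 1 lower each, lay near that share. Of 31 vesicle and release genes Unc13a, the main vesicle priming factor of glutamate synapses, fell to 292 and 300.1 from 456 and 462 CPM (log2 change -0.63, SE 0.10, edgeR adjusted p = 0.0136), and its relative Unc13c rose to 9.26 and 11.2 from 3.66 and 3.86 CPM (log2 change 1.44, SE 0.20, edgeR adjusted p = 0.00935). The median of the 31 was -0.04. Of 32 calcium and calmodulin genes Camk2d, the delta subunit of the kinase CaMKII, rose to 79.1 and 85.3 from 30.4 and 34.1 CPM (log2 change 1.35, SE 0.11, edgeR adjusted p = 0.00175), and Ryr1, a calcium release channel, fell to 17.7 and 15.7 from 29.2 and 29.1 CPM (log2 change -0.80, SE 0.13, edgeR adjusted p = 0.0133). Of 30 synaptic adhesion genes C1ql2 and C1ql3, secreted C1q-like organisers, and Lrrtm4, a postsynaptic partner of heparan sulfate, fell. C1ql2 had 27.6 and 23.9 CPM in WT and 5.78 and 5.92 CPM in cKO (log2 change -2.14, SE 0.15, edgeR adjusted p = 0.00101), while C1ql3 (-0.62) and Lrrtm4 (-0.75) fell less. Among monoamine and acetylcholine receptors Drd1, the D1 dopamine receptor, rose to 11.7 and 14.4 from 4.01 and 3.66 CPM (log2 change 1.76, SE 0.20, edgeR adjusted p = 0.00435), and Chrna4 (-0.94) and Htr4 (-0.78) fell, of 30 tested. Of 20 opioid, cannabinoid and purine receptors Oprk1, the kappa opioid receptor, rose (log2 1.80, SE 0.41). The microglial purine receptors P2ry12 and P2ry13 fell along with P2rx5, Gpr34 and Gpr37, the last an oligodendrocyte receptor at 79.3 and 84.5 CPM in WT and 40.8 and 40.2 CPM in cKO (log2 change -1.02, SE 0.10, edgeR adjusted p = 0.0031). Of the 16 calls in these lists, 12 remained without WT replicate 1 and 7 without WT replicate 2. In adhesion, Cdh19, a cadherin of the neural crest and glial lineages, rose to 19.7 and 10.2 from 3.31 and 4.06 CPM (log2 change 2.02, SE 0.34, edgeR adjusted p = 0.0259), with Cdh18 and Cdh22 (1.02 and 0.84). Dsp, the desmosomal plakin that marks granule cells, fell to 25.4 and 14.8 from 66.6 and 86.2 CPM (log2 change -1.92, SE 0.30, edgeR adjusted p = 0.0353). Of these 4 cadherin family calls and 3 of integrins and laminins, 4 remained without WT replicate 1 and 1 without WT replicate 2.

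Transcription factors of several families moved in both directions. Of 64 tested homeobox genes outside the Hox clusters 8 rose and 4 fell, with a median of -0.01. These counts take in the antisense transcripts Zfhx2os, which rose, and Emx2os, which fell. Some of the rising genes were nearly silent in WT: Isl1, a factor of motor and striatal neurons, had 1 and 1 estimated counts in the WT libraries and 17 and 17 in the cKO libraries. En1, a midbrain and hindbrain factor from outside this list, named after its values were seen, had 2 and 0 estimated counts in the WT libraries and 24 and 22 in the cKO libraries. Fitted folds of such genes depend on the few WT counts and are not given. Lhx9, better expressed, had 15.6 and 13.3 CPM in WT and 31.2 and 27.2 CPM in cKO (log2 change 1.01, SE 0.14, edgeR adjusted p = 0.00944), and Six3 had 1.20 and 1.15 CPM in WT and 4.72 and 3.26 CPM in cKO (log2 change 1.76, SE 0.32, edgeR adjusted p = 0.0219). Prox1 fell to 50.1 and 28.5 from 139 and 146 CPM (log2 change -1.86, SE 0.28, edgeR adjusted p = 0.0315), and the cortical and hippocampal patterning genes Emx2 (log2 -1.35, SE 0.24) and Emx1 (log2 -0.75, SE 0.18) fell with them. Emx2os is antisense to Emx2, and without strand information their reads cannot be told apart. Of 34 nuclear receptors 2 rose and 4 fell, 3 of these from the activity-induced NR4A family: Nr4a1 had 133 and 153 CPM in WT and 52.7 and 59.4 CPM in cKO (log2 change -1.35, SE 0.12, edgeR adjusted p = 0.00229), Nr4a2 changed by -0.76 and Nr4a3 by -0.48. Of 23 KLF and EGR factors 4 fell and 1 rose. Egr1 had 387 and 493 CPM in WT and 181 and 169.6 CPM in cKO (log2 change -1.33, SE 0.14, edgeR adjusted p = 0.00342), Egr2 had 12.6 and 15.7 CPM in WT and 1.59 and 0.451 CPM in cKO (log2 change -3.77, SE 0.49, edgeR adjusted p = 0.0168) and Egr4 changed by -0.76, so EGR and NR4A immediate early genes were lower together, while Klf15, a glucocorticoid-induced factor, rose (log2 0.70, SE 0.14). Foxj1, the master factor of motile cilia, was the only call of 26 forkhead genes, at 8.71 and 7.22 CPM in WT and 21.2 and 16.0 CPM in cKO (log2 change 1.22, SE 0.19, edgeR adjusted p = 0.0131). Of the 24 calls in these families 12 remained without WT replicate 1 and 3 without WT replicate 2.

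Large families were read against the 6.72% of all tested genes called in either direction. Of 293 solute carriers 15 rose and 19 fell. Slc2a1, the glucose transporter of the blood-brain barrier and astrocytes, had 112 and 101 CPM in WT and 160.2 and 199.9 CPM in cKO (log2 change 0.76, SE 0.13, edgeR adjusted p = 0.0195), and Slc20a2, a phosphate carrier, 41.5 and 44.0 CPM in WT and 70.3 and 73.7 CPM in cKO (log2 change 0.75, SE 0.10, edgeR adjusted p = 0.00842). Slc7a10, an astrocyte carrier of serine and glycine, fell to 15.3 and 14.1 from 38.1 and 33.9 CPM (log2 change -1.29, SE 0.13, edgeR adjusted p = 0.0031), and Slc29a4, a monoamine carrier, to 26.99 and 20.4 from 69.8 and 57.2 CPM (log2 change -1.42, SE 0.16, edgeR adjusted p = 0.00519). Of these 34 calls 13 remained without WT replicate 1 and 7 without WT replicate 2. Tubulins and intermediate filaments gave 8 falls and 2 gains of 45: Tubb2b, Tuba1a, Tubb4a, Tuba4a, Krt2 and the neurofilament genes Ina (-0.61), Nefh (-0.53) and Nefm (-0.50) fell, and Vim, the vimentin of immature glia, rose to 86.1 and 70.8 from 37.2 and 34.7 CPM (log2 change 1.13, SE 0.13, edgeR adjusted p = 0.00435). Of 65 P450, aldehyde dehydrogenase and conjugating enzymes 6 rose and 9 fell, with Sult1a1 at 9.26 and 12.8 CPM in WT and 30.5 and 29.7 CPM in cKO (log2 change 1.45, SE 0.17, edgeR adjusted p = 0.00507) and Cyp51, a sterol demethylase of cholesterol synthesis, at 66.2 and 59.4 CPM in WT and 30.9 and 31.4 CPM in cKO (log2 change -1.01, SE 0.11, edgeR adjusted p = 0.00389). Of 366 genes named Zfp 4 rose and 3 fell, among them Zfp36 (log2 1.65, SE 0.16) and Zfp36l2 (log2 1.20, SE 0.12), which destabilise mRNAs and are not C2H2 zinc finger factors.

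Housekeeping groups gave few calls. None of 79 cytosolic ribosomal protein genes passed edgeR or DESeq2, an unadjusted p under 0.05 was reached by 6 higher and 1 lower, and the median was 0.10. None of 46 proteasome genes passed either tool, 2 were higher at an unadjusted p under 0.05, and the median was 0.08. Of 91 nuclear genes of the respiratory chain the complex I subunits Ndufb2 (log2 -0.70, SE 0.12) and Ndufs5 (log2 -0.64, SE 0.13) fell. Of 32 mitochondrially encoded RNAs mt-Rnr2 and the transfer RNAs mt-Tl1, mt-Tn and mt-Ty rose and the transfer RNA mt-Tq fell. Of 89 spliceosome and RNA-binding genes Hnrnph1 (log2 -0.57, SE 0.12), Hnrnpc and Hnrnpa1 fell and 1 rose, and none of these 4 calls was kept with the replicate number as a block. Of the 15 calls in these housekeeping lists and among noncoding RNAs, 6 remained without WT replicate 1 and 3 without WT replicate 2. Gas5, a snoRNA host transcript that competes for the glucocorticoid receptor, rose to 66.8 and 65.6 from 30.9 and 33.7 CPM (log2 change 1.03, SE 0.11, edgeR adjusted p = 0.00339).

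**Figure D4:**
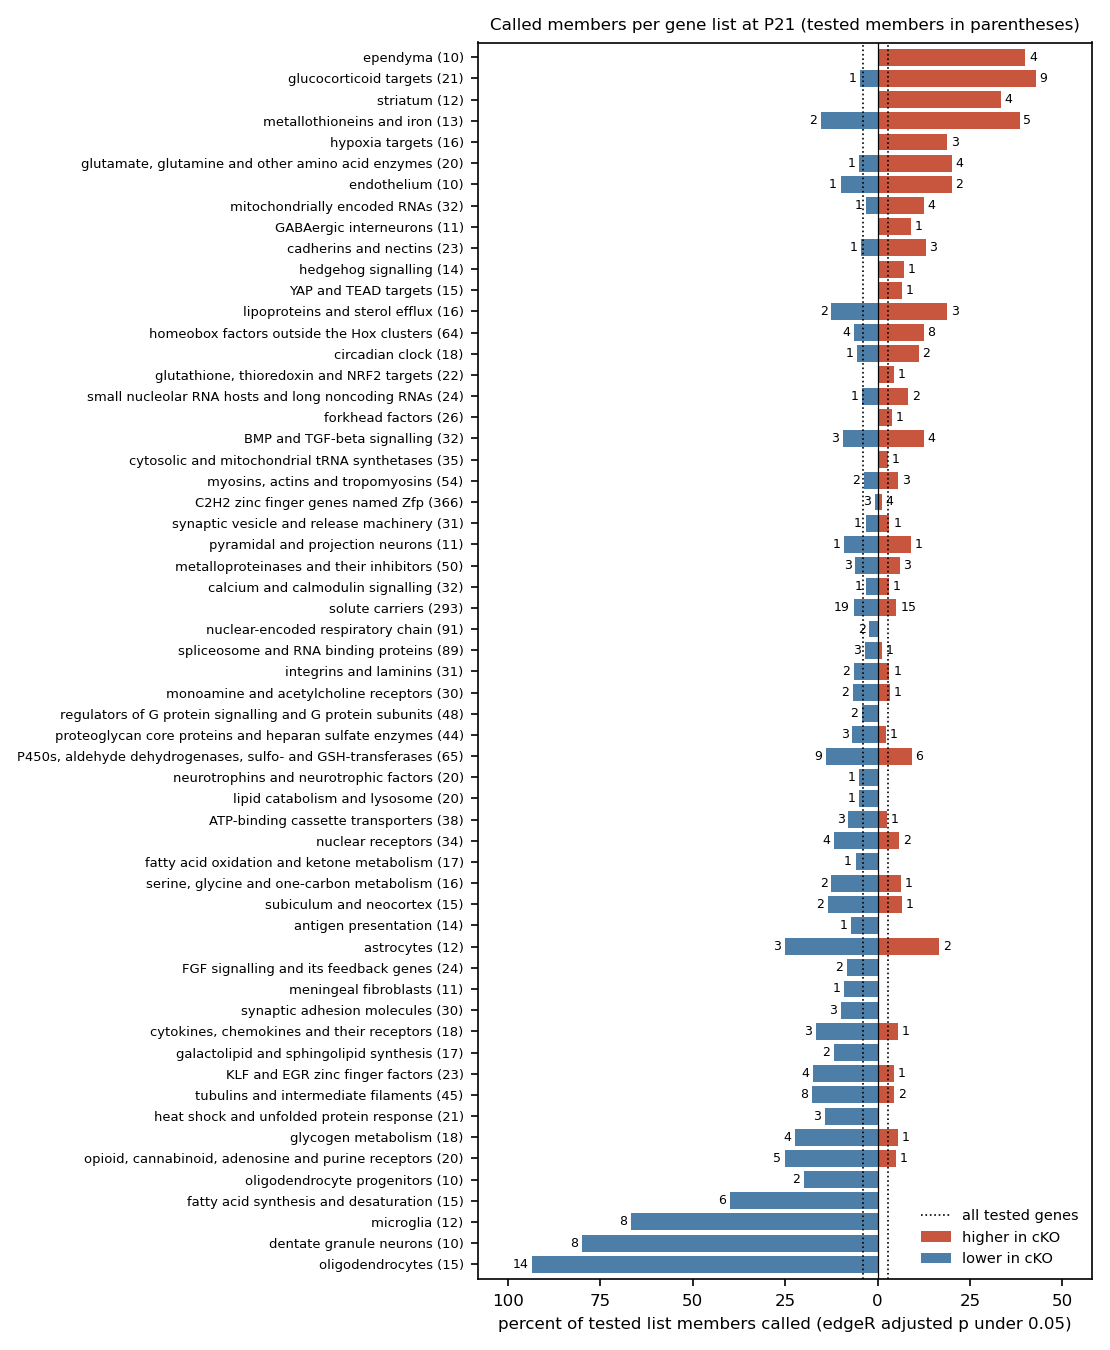
Percent of the tested members called higher (right) and lower (left) in lists with at least 10 tested members and at least 1 call, with dotted lines at 2.81% and 3.91% for all tested genes. Oligodendrocyte, dentate granule and microglial markers extend furthest to the lower side and glucocorticoid targets and ependymal markers to the higher side.

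Markers of other cells and neighbouring regions moved beside these gene groups. Of 10 dentate granule markers 8 fell, with a median of -1.41 and a summed level of 652 and 720 CPM in WT and 372 and 330 CPM in cKO. Stxbp6 had 99.6 and 105 CPM in WT and 38.9 and 26.8 CPM in cKO (log2 change -1.64, SE 0.18, edgeR adjusted p = 0.00507) and Plk5 12.4 and 11.6 CPM in WT and 4.63 and 3.56 CPM in cKO (log2 change -1.55, SE 0.20, edgeR adjusted p = 0.00745). Of these 8 calls 4 remained without WT replicate 1 and 3 without WT replicate 2. Ependymal markers rose in 4 of 10 genes, with a median of 1.17 and a summed level of 25.5 and 21.9 CPM in WT against 48.7 and 41.8 CPM in cKO, and Foxj1 and Ak7 given above are ciliary genes. Of the 4 ependymal calls 1 remained without WT replicate 1 and 0 without WT replicate 2. Striatal markers rose in 4 of 12, with a median of 1.61 and a summed level of 145 and 163 CPM in WT and 216 and 292 CPM in cKO, Drd1 and Isl1 among them, and 1 was called without WT replicate 2. Ppp1r1b, the DARPP-32 phosphatase inhibitor, had 57.5 and 59.6 CPM in WT and 98.1 and 140.2 CPM in cKO (log2 change 1.02, SE 0.17, edgeR adjusted p = 0.0193). The part that tissue from outside the hippocampus has in these gains was not tested. Astrocyte markers went both ways, with 2 higher and 3 lower of 12, as Gjb6 (0.73) and Sox9 (0.79) rose and Aqp4 (-0.50) fell. Pyramidal neuron markers gave 1 call in each direction of 11, with a median of -0.16. Of 11 interneuron markers Lamp5 rose to 78.2 and 94.4 from 25.5 and 30.4 CPM (log2 change 1.63, SE 0.14, edgeR adjusted p = 0.00202). Choroid plexus markers gave no edgeR or DESeq2 call and none at an unadjusted p under 0.05 of 11, with a median of 0.28 that was -0.68 without cKO replicate 1, when 4 were called lower.

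Peaks of the 3-week histone marks were compared with the RNA calls by gene, a readout that did not enter the RNA test. The H3K27me3 lists held 4124 peaks in WT and 15659 in cKO, covering 2860228 and 13035821 bp, from 1 library each. A peak within 1 kb of a gene end in the cKO list alone was found at 136 of 649 genes that fell (20.96%, Wilson 95% interval 18.0% to 24.3%) and at 90 of 452 genes that rose (19.9%, 16.5% to 23.8%), against 11.0% of genes not called. Genes of both directions thus had such peaks more often than uncalled genes, by more than the counting error. Of 1854 genes with H3K27me3 in cKO alone, 4.85% rose and 7.34% fell. Of 2885 genes with no H3K27me3 in either list and no H3K4me3 in WT, 3.95% rose and 5.68% fell. Of 10749 genes with no H3K27me3 and with H3K4me3 in WT, 1.97% rose and 3.06% fell. H3K27me3 in both lists was found at 36 genes that rose (7.96%, 5.81% to 10.8%), beside 3.08% of genes that fell and 2.68% of genes not called. Among the 457 genes with H3K27me3 in WT, 7.88% rose and 4.38% fell, and their median WT level was 3.63 CPM. H3K4me3 in the cKO list alone was found at 28 genes that rose (6.19%, 4.32% to 8.81%), beside 2.62% of genes that fell and 2.14% of genes not called. H3K27ac in both lists was found at 27.9% of genes that rose, 36.2% of genes that fell and 44.0% of genes not called. Intervals cover counting error only, and level differed between these classes.

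**Figure D5:**
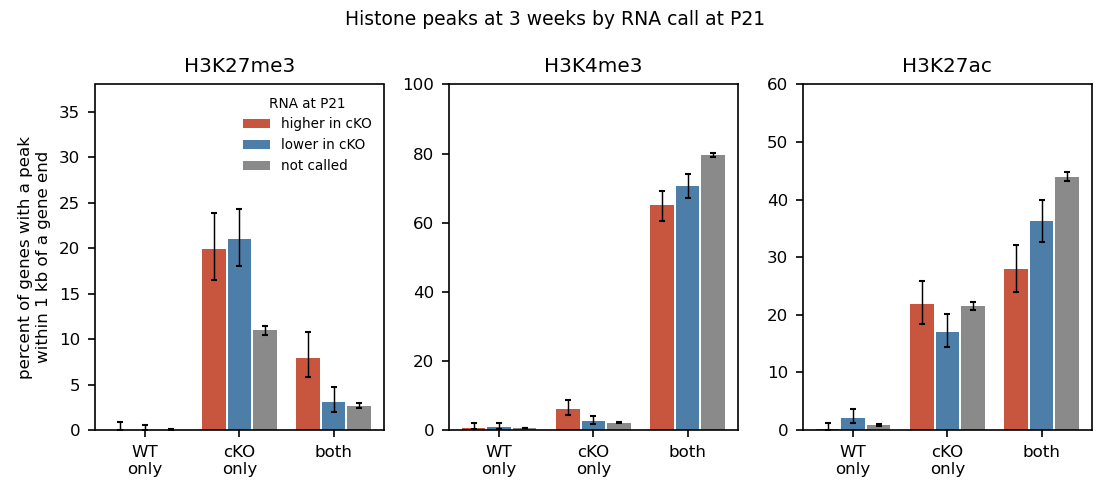
Percent of genes with a peak within 1 kb of a gene end in WT alone, cKO alone or both, for 3 marks and for genes higher, lower and not called in RNA, with Wilson 95% intervals. H3K27me3 peaks of cKO alone mark 19.9% of genes that rose and 20.96% of genes that fell, against 11.0% of genes not called.

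The same contrast at E16.5 called 2 genes higher (0.0118% of 16958 tested) and 19 lower (0.112%), and its 6 libraries share no sample with P21. Of the 680 genes that fell at P21, 467 had a negative change at E16.5 and 5 were called lower there. Of the 489 that rose, 160 had a positive change at E16.5, beside 48.9% of all tested genes. The difference between the ages, tested as an interaction in a fit of all 10 RNA libraries, was called higher at P21 for 81 genes (0.427% of 18979) and lower for 140 (0.738%), of which 39 and 99 were genes called at P21 in the same direction. Among falling genes Scd2 changed by -0.10 at E16.5, Tubb2b by 0.22 and Mog by 0.26, and their differences of -0.90, -2.35 and -2.12 were called. Among rising genes Cpe changed by -0.55 at E16.5 and Lamp5 by -1.15, with called differences of 1.22 and 2.76. Mog had 1.79 to 2.56 CPM in the 6 E16.5 libraries, scaled in the fit of all 10, and Tubb2b 3942 to 6027 CPM, so their levels at the 2 ages were far apart. Age cannot be told apart from any batch between the 2 ages, and differences in dissected tissue were not tested. With the replicate number as a block 0 differences were called higher and 1 lower by edgeR, while 1147 and 1223 had an unadjusted p under 0.05 and DESeq2 without the block called 427 and 812. Without WT replicate 1 of P21, 6 and 3 were called, without cKO replicate 2 of P21, 2 and 5.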

How the data were processed

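RNA of 4 hippocampal libraries at P21 (2 WT, 2 cKO) was analysed across all genes, with 6 libraries of E16.5 and 6 peak lists of 3 weeks for comparison. The authors deposited estimated counts per Ensembl gene, and the submitters' processing notes name Salmon 1.0.0 and the build GRCm38. Neither the summing of transcripts nor the use of strand is given in the sources used here. Values that were not whole made up 20.8% to 22.5% of each library, and all were rounded. The authors' deposited table of log2 fold changes and adjusted p-values (DESeq2 1.26.0 per the submitters' processing notes) gave the gene symbols. It called 485 genes higher and 841 lower in the authors' deposited table, of which 377 and 626 were also called here and 0 in the opposite direction. Peaks were called by MACS version 2.2.7.1 on single libraries against the input of the same genotype at a q-value limit of 0.01, with a −log10 q-value and a fold enrichment ratio per peak, per the file headers. The submitters' processing notes name MACS2 2.2.5, and Bowtie2 2.3.5.1 for alignment.

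The main test was edgeR 4.0.16 (R 4.3.3, limma 3.58.1): filterByExpr, which kept 17407 of 55385 genes, TMM scaling, the robust quasi-likelihood F test and Benjamini-Hochberg adjustment at 0.05. Standard errors follow from the F statistic. Ages were compared by a contrast in a fit of all 10 RNA libraries. Alternatives were DESeq2 1.42.0, RLE size factors, upper-quartile scaling, no filter on low counts, the replicate number as a block, a fit of all 10 libraries, each library left out, and for peaks a q-value of 0.0001 or lower and a 2 kb window. Tables were joined with Python 3.11.15, pandas 2.3.3 and scipy 1.17.1. In simulated counts of 17407 genes with 200 changed, 59% of 2-fold and 94% of 4-fold changes were recovered and 27 of 180 calls were false. That false share was larger than the 0.05 threshold, so the P21 calls may hold more false ones than the threshold states. For the difference between ages, over 18979 genes, 21% and 68% were recovered and 3 of 92 calls were false.

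The comparison, the 74 gene lists and the tests were chosen with earlier results of these data known, so lists are described by counts and medians beside those of all genes, with no list test. Named genes were Arid1a, the 12 largest gains and losses in mean CPM and the 20 highest and lowest log2 changes among called genes of at least 5 CPM with non-overlapping groups, up to 4 called members per list or the closest 1, and, for the differences between ages, the 8 at each extreme. Members beyond that rule, the genes used to show the libraries that stood apart and the 6 promoters shown were chosen after their values were seen. Some named genes are not reported here. Gene ends came from a RefSeq table of GRCm38.p6, matched for 15945 tested genes (91.6%). Peaks were assigned to a gene within 1 kb of either end, in place of the planned promoters, because RefSeq promoter sequences matched 78.4% of the tested protein-coding genes, and a check of promoter composition over the called genes was void for the same reason. The genes that the naming rule took from promoter peaks were therefore taken by gene ends and are not listed separately. Same-numbered libraries of the 2 genotypes had a correlation of deviations of 0.0198 over genes. With 2 libraries per genotype, pair 2 mirrors pair 1, so this value cannot show that the replicate number has no effect. The numbers coincide with sex, but the labels do not say that they mark pairs, so they were not taken as pairs. With 2 libraries against 2, an exact permutation test of a single value cannot go below a two-sided p of 0.333, and none is given.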

Additional observations from a re-analysis of the deposited data

Results flagged for a closer look

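For 39 of the genes named by the rule, the cKO effect at P21 differed from that at E16.5 by the test of the difference itself (the interaction in edgeR's fit of all 10 RNA libraries, adjusted p 0.00449 to 0.0481). Values are log2 changes at P21 minus those at E16.5. The genes with a more negative effect at P21 were Gjb1 (-2.96), Pimreg (-2.94), C1ql2 (-2.66), Rlbp1 (-2.54), Vipr1 (-2.39), Tubb2b (-2.35), Tnfrsf25 (-2.301), Sypl2 (-2.24), Mog (-2.12), Ryr1 (-2.12), Slc29a4 (-1.53), Gpt (-1.48), Hsph1 (-1.08), Cyp51 (-1.05), Dnajb5 (-1.05), Chst15 (-0.96), Abcb10 (-0.92), Scd2 (-0.90), Hnrnph1 (-0.83), Hnrnpc (-0.78) and Fads1 (-0.71). Among them, the sterol and fatty acid genes Cyp51, Scd2 and Fads1 had E16.5 changes of 0.02, -0.10 and -0.07, and the chaperone genes Hsph1 and Dnajb5 of 0.16 and 0.01.

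The genes with a more positive effect at P21 were Aldh6a1 (0.96), Cpe (1.22), Ctsl (1.34), Timp2 (1.45), Aldoc (1.93), Id1 (2.3), Zfp36 (2.39), Lamp5 (2.76), Grp (3.39), Ctla2a (3.39), Bcan (3.40), Plin4 (3.42), Emilin2 (3.49), Folh1 (3.87), Dlk1 (3.9), Spp1 (4.18), Gdf5 (4.43) and Angptl4 (4.45). In each of these 18 the E16.5 change was negative, and for Grp (-4.54), Bcan (-3.22), Folh1 (-3.25), Emilin2 (-2.69), Aldoc (-2.33), Spp1 (-2.26) and Ctsl (-0.92) it was the larger part of the difference. The median E16.5 change was -3.41 over meningeal fibroblast markers and -1.45 over choroid plexus markers, against 0.07 over pyramidal neuron markers. In some genes WT replicate 1 of E16.5 stood apart, as Col3a1 had 236, 25.7 and 53.7 CPM in WT and 2.90, 3.05 and 14.4 CPM in cKO. Bcan was even, at 99.6, 107 and 117 CPM in WT and 10.3, 9.15 and 15.1 CPM in cKO. Whether the dissected tissue differed between the E16.5 libraries was not tested. Age cannot be told apart from any batch between the 2 ages. Fitted values of nearly silent groups are imprecise: at P21 Gdf5 was at 0.0543 and 0 CPM in WT and 0.254 and 0.484 CPM in cKO and was not tested in the P21 fit, and Pimreg was at 0.102 and 0.0537 CPM in cKO. All 39 differences were also called by DESeq2, with RLE size factors and with no filter. With the replicate number as a block edgeR called 0 of them. Leaving out a P21 library kept 2 (WT replicate 1), 3 (WT replicate 2), 13 (cKO replicate 1) and 3 (cKO replicate 2), and leaving out an E16.5 library kept 4 to 39.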

How the results depend on the processing

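The P21 calls (489 higher, 680 lower) became 921 and 1228 with no filter on low counts and 155 and 350 in the fit of all 10 libraries, and ranged from 138 to 1244 and from 293 to 1627 when 1 library was left out. DESeq2 called 502 and 829, sharing 379 and 623. With the replicate number as a block 361 and 501 were called, of which 331 and 467 were shared. The 2 same-numbered pairs, which mirror each other, had a correlation of deviations of 0.0198, and the numbers coincide with sex. Arid1a stayed lower in each setting, between -1.23 and -0.94 when 1 library was left out. The difference between ages (81 higher, 140 lower) became 427 and 812 with DESeq2, 123 and 235 with no filter, and 0 and 1 with the replicate block, with 2 to 273 and 3 to 339 when 1 library was left out. The peak shares moved little: H3K27me3 of cKO alone was at 20.3% and 23.7% of genes that fell and 19.2% and 21.9% of genes that rose, with the stricter q-value and the wider window. The Y-linked gene Ddx3y (0.64, SE 3.09) reversed without WT replicate 2 (-0.36) and without cKO replicate 1 (-5.82), within a range of -5.82 to 8.90 when 1 library was left out. Of the 208 named genes called at P21, 196 were kept by DESeq2, 200 with upper-quartile scaling, 185 with the replicate block, 74 in the fit of all 10 libraries, 145 without WT replicate 1, 110 without WT replicate 2, 206 without cKO replicate 1 and 195 without cKO replicate 2. With 2 libraries per genotype, 59% of simulated 2-fold changes were recovered, and smaller changes were not simulated.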

Other observations

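Single transcripts of unusual pattern stood outside the gene groups and were chosen after their values were seen. Gm20388, a gene model listed as protein-coding, dropped from 496 and 471 counts in the WT libraries to 0 and 0 in the cKO libraries at P21, while its E16.5 change was 0.10. An entry named Atp5o (ENSMUSG00000116933.1) went from 0 and 0 counts in the WT libraries to 24 and 29 in the cKO libraries, while a second entry of the same symbol, with counts of 2578 and 2427 in WT libraries and of 2277 and 2396 in cKO libraries, changed by -0.13 and was not called. Whether the estimation split reads between overlapping models was not tested. Among genes called higher, 21 had at most 3 counts in each WT library, and among genes called lower, 17 had at most 3 counts in each cKO library.

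Vipr1, a receptor for vasoactive intestinal peptide, had 28.1 and 25.7 CPM in WT and 13.5 and 18.6 CPM in cKO at P21 (log2 change -0.75, SE 0.17, edgeR adjusted p = 0.0425) and a change of 1.63 at E16.5. Bcan, the proteoglycan brevican, had 266 and 229 CPM in WT and 242 and 325 CPM in cKO and was not called at P21 (edgeR adjusted p = 0.496), with a change of -3.22 at E16.5.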
